A study of Mus musculus with 2 samples.

Results

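The 5 miRNA hairpins Mir431, Mir433, Mir127, Mir434 and Mir136 lie on the strand opposite to the coding sequence of the imprinted gene Rtl1, and their short fragments were examined in J1 mouse embryonic stem cells. A fragment was counted when a sequence of 15 to 17 nt matched one of these hairpins exactly, over its full length and on the sense strand. In all, 36 distinct sequences met this rule, of 96471 sequences of that length and of 1059 assigned to any miRNA hairpin. They held 306 reads in the library of cells treated with SB431542 and 983 reads in the library of cells treated with DMSO.

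J1 is an embryonic stem cell line of strain 129S4/SvJae, grown here on gelatin. Both groups were kept in LIF (1000 U/mL), a cytokine that holds mouse stem cells in the undifferentiated state. The treated cells received 3 µM SB431542, which inhibits the kinases ALK4, ALK5 and ALK7 of TGF-beta family receptors, for 24 h, and the control cells received an equal volume of its solvent DMSO for 24 h. The study asked which small RNAs the compound changes. Each group had 1 library of total RNA, so no difference has a replicate check and no p-value is given. Intervals are at the 95% level and cover counting error only, because 1 library a group shows no spread between libraries. PCR copies of a molecule could not be told from separate molecules, so the intervals may be too narrow even for counting error.

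The Dlk1-Dio3 region is expressed from 1 parental chromosome at each gene: Dlk1, Rtl1 and Dio3 from the paternal copy, and Meg3, the transcript antisense to Rtl1, Rian and the miRNA-bearing transcript Mirg from the maternal copy. Rtl1 is a retrotransposon-derived protein needed for the fetal capillaries of the mouse placenta. Because the hairpins lie antisense to its coding sequence, their miRNAs match the Rtl1 mRNA without a mismatch and can direct its cleavage in mouse. A miRNA hairpin is cut to a duplex whose 5p or 3p strand is then loaded on an Argonaute protein, and bases 2 to 8 of that strand, the seed, select most targets. In mouse pluripotent cell lines the maternal transcripts can be silenced.

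In the GRCm38 annotation the hairpins span 4942 bases on the plus strand of chromosome 12. From the 5′ end of their shared transcript they are Mir431 (ENSMUSG00000070080.1, 109590447 to 109590537), Mir433 (ENSMUSG00000070072.1, 109591715 to 109591838), Mir127 (ENSMUSG00000070076.2, 109592846 to 109592915), Mir434 (ENSMUSG00000070133.1, 109594506 to 109594599) and Mir136 (ENSMUSG00000104858.1, 109595327 to 109595388). Each lies whole within the coding exon of Rtl1, a gene on the minus strand at 109589193 to 109600330. Mir432, also on the plus strand there, had no read in either library.

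The whole Mir431 hairpin is shown first because it supplied most reads, with both mature miRNAs in capitals (RefSeq, GRCm38.p6, plus strand, 5′ to 3′).
Mir431 hairpin: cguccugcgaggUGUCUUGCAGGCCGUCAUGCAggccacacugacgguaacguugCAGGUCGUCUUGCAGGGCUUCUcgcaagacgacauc

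The mature miRNAs of the 6 arms with 10 or more reads in total follow from the same source, with the seed in capitals. No other mature mouse miRNA in that table has any of these seeds, and no 2 of them are alike.
miR-431-3p: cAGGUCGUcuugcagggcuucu
miR-433-3p: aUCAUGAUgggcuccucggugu
miR-127-5p: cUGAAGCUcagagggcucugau
miR-127-3p: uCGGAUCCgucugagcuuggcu
miR-434-5p: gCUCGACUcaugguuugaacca
miR-136-3p: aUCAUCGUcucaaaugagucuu

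The commonest deposited sequence of each of these arms is printed in DNA letters, so that it can be laid against the mature miRNA. Capitals mark the bases that belong to the annotated mature miRNA, and lower case marks bases before it.
miR-431-3p fragment: tgCAGGTCGTCTTGCA
miR-433-3p fragment: ATCATGATGGGCTCCTC
miR-127-5p fragment: CTGAAGCTCAGAGGGCT
miR-127-3p fragment: TCGGATCCGTCTGAG
miR-434-5p fragment: GCTCGACTCATGGTTT
miR-136-3p fragment: cATCATCGTCTCAAATG
The leading fragments of miR-431-3p and miR-136-3p begin before the annotated mature end. The other 4 begin at it.

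The libraries held 517535 reads of 15 to 17 nt with SB431542 and 990296 with DMSO, of which 22141 and 78514 were assigned to miRNA hairpins (4.28% and 7.93%). Levels are given as reads per 1000000 of these miRNA reads (RPM), so that 1 read is worth 45.2 RPM with SB431542 and 12.7 RPM with DMSO. The deposited sequences run from 3 to 17 nt. Full-length miRNAs are not analysed here, and a level is that of fragments. The miR-290-295 cluster, the defining miRNAs of mouse embryonic stem cells, gave 47.5% of the miRNA reads with SB431542 and 50.4% with DMSO. It had reads from 7 of its 9 hairpins, but nearly all came from miR-293-3p. That arm had 10359 of the cluster's 10514 reads with SB431542 and 38924 of 39534 with DMSO. It is therefore also a large part of the miRNA total on which RPM is based. No read came from the miR-302 and miR-367 cluster of primed pluripotent cells. The miRNAs of fibroblasts and feeder cells gave 0.244% and 0.329%, and those of neural cells 0.0542% and 0.0751%. Most reads of the fibroblast and feeder list came from 1 arm, miR-152-3p. It had 32 of the 54 reads with SB431542 and 170 of the 258 with DMSO, and 7 of the 10 listed genes had a read. In such a bulk sample, fewer cells of a type and less RNA per cell cannot be told apart.

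Fragments of the 5 hairpins made up 1.38% of the miRNA reads with SB431542 (95% Clopper-Pearson interval 1.23 to 1.54) and 1.25% with DMSO (1.18 to 1.33). Most came from 1 arm. miR-431-3p had 267 reads with SB431542 and 784 with DMSO. That was 87.3% of all reads of the 5 hairpins with SB431542 (83.0 to 90.8) and 79.8% with DMSO (77.1 to 82.2). It ranked 7 by level in each library among the 48 miRNA arms described, which are those with 50 or more reads in total.

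Its level was 12059 RPM with SB431542 (exact Poisson interval 10656 to 13596) and 9985 RPM with DMSO (9299 to 10710). The opposite arm, miR-431-5p, the strand known to repress the regulator Pax7 in mouse muscle stem cells, had 0 reads in both libraries. Counts of 0 leave room for 3 reads, or 135 RPM with SB431542 and 38.2 RPM with DMSO. Within the Mir431 hairpin every read of 15 to 17 nt thus came from the 3p arm.

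Mir433 was next and had the same one-sided use. miR-433-3p, which represses the bone regulator Runx2 in mouse mesenchymal cells, had 17 reads with SB431542 (768 RPM, 447 to 1229) and 82 with DMSO (1044 RPM, 831 to 1296). miR-433-5p had none in either library.

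Mir434 used the other arm. miR-434-5p had 11 reads with SB431542 (497 RPM, 248 to 889) and 56 with DMSO (713 RPM, 539 to 926). The 3p side of this hairpin had 0 reads with SB431542 and 4 with DMSO, of which 2 began at the first base of miR-434-3p and 2 lay between the arms.

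Mir127 and Mir136 gave reads from both arms. miR-127-5p had 3 reads with SB431542 and 24 with DMSO, and miR-127-3p had 4 and 9. The 3p strand of miR-127 is the one usually reported, and it represses BCL6 in human cells. From Mir136 there were 0 reads of miR-136-5p with SB431542 and 9 with DMSO, and 4 and 15 reads of miR-136-3p. With DMSO the 5p arm held 72.7% of all Mir127 reads (54.5 to 86.7). Of its 24 reads, 6 were of a sequence also found in another gene, and the share was not recalculated without them. An arm preference is therefore not called. With SB431542 the 5p arm held 3 of 7 reads (9.90 to 81.6%), an interval that includes equal use. For Mir136 the 3p arm held 4 of 4 reads with SB431542 (39.8 to 100%) and 62.5% with DMSO (40.6 to 81.2), and both intervals include equal use.

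By hairpin, the order was the same in both libraries: Mir431, Mir433, Mir434, Mir127 and Mir136. Mir431 lies at the 5′ end of the group and Mir136 at the 3′ end. The summed levels were 768 RPM with SB431542 and 1044 RPM with DMSO for Mir433, 497 and 764 RPM for Mir434, 316 and 420 RPM for Mir127, and 181 and 306 RPM for Mir136. Of the reads of Mir434 and Mir127 together, Mir434 held 61.1% with SB431542 (35.7 to 82.7) and 64.5% with DMSO (53.9 to 74.2), so these neighbours differed beyond counting error with DMSO. For Mir433 beside Mir434 and for Mir127 beside Mir136, the interval of the share included 50% in both libraries.

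**Figure D1:**
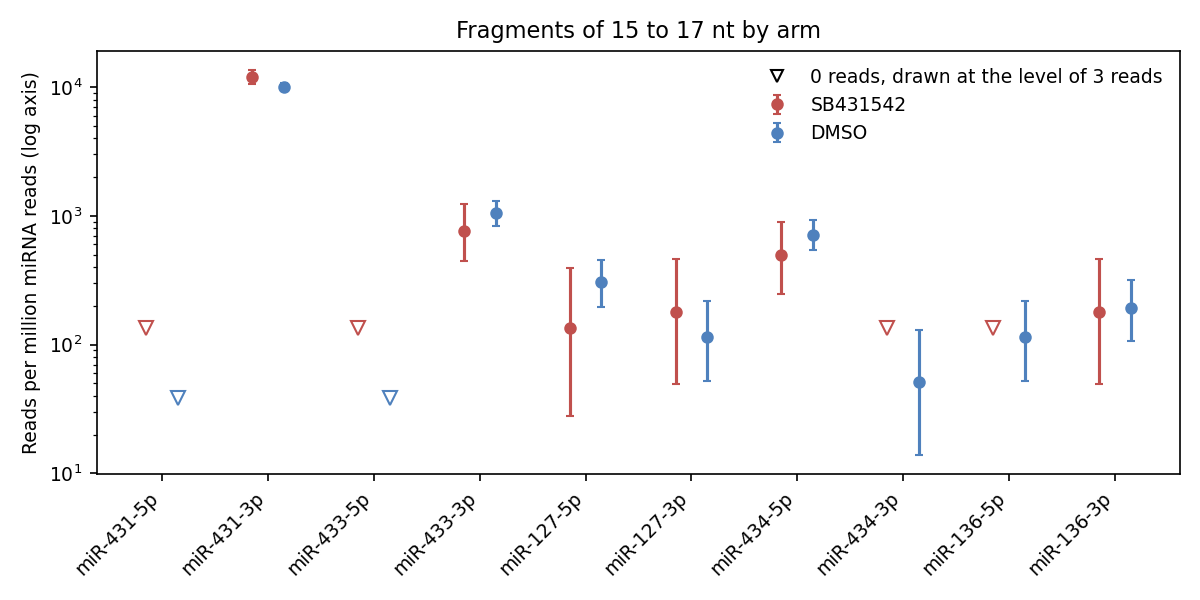
Level of each arm in reads per 1000000 miRNA reads (log axis), with SB431542 in red and DMSO in blue; points are single libraries, bars are exact 95% Poisson intervals, and open triangles mark arms with 0 reads, drawn at the level of 3 reads (135 RPM with SB431542, 38.2 RPM with DMSO). miR-431-3p stands at 12059 and 9985 RPM, above every other arm.

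No read of 15 to 17 nt matched the opposite strand of the hairpins in either library. Mir3071, annotated on the strand opposite to Mir136, had no read either. Across the whole annotated Rtl1 mRNA, 306 reads with SB431542 and 985 with DMSO lay antisense to it, and all but 2 reads with DMSO fell in the 5 hairpins. Sense matches to Rtl1 were 4 reads and 7 reads in 11 sequences, each of which also matched another gene, so no read could be given to the Rtl1 mRNA alone. Among the 36 hairpin sequences, 1 was shared with another annotated gene: a sequence of miR-127-5p with 0 reads with SB431542 and 6 with DMSO, also found in Tm7sf3.

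The 5′ ends set miR-431-3p apart from its neighbours. Positions below count from 1 at the 5′ end of the hairpin, and mature miR-431-3p begins at 56. Reads began at position 54, 2 bases before it, in 209 of 267 with SB431542 (78.3%, 72.8 to 83.1) and in 640 of 784 with DMSO (81.6%, 78.7 to 84.3). A further 47 reads (17.6%) and 130 reads (16.6%) began at 53. The annotated first base itself opened 7 reads with SB431542 (2.62%, 1.06 to 5.33) and 8 with DMSO (1.02%, 0.442 to 2.00).

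Within 15 to 17 nt, a read from position 54 can end only at 68 to 70 and one from 53 only at 67 to 69, so the 3′ ends are largely set by the length range. They ended at position 68 or 69 in 95.1% of reads with SB431542 (91.8 to 97.4) and 95.5% with DMSO (93.8 to 96.9), well inside the mature sequence, which ends at 77. Over reads of 12 to 17 nt the share was 88.2% with SB431542 (84.1 to 91.5) and 86.0% with DMSO (83.6 to 88.2), with 23 and 89 reads of 14 nt from position 54. Reads from position 53 were longer than those from 54. Of the reads from position 53, 26 of 47 with SB431542 and 73 of 130 with DMSO were 17 nt long. Of those from position 54, 5 of 209 and 10 of 640 were. The few reads that began at 56 ended at 70 to 72.

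In the leading fragment, bases 2 to 8 are not the annotated seed but the window that begins 2 bases earlier. No mature mouse miRNA in the RefSeq table has that window as its seed. The annotated seed bases are nevertheless inside the fragment: 98.7% of the reads of the 5 hairpins with SB431542 (96.7 to 99.6) and 98.9% with DMSO (98.0 to 99.4) held all bases 2 to 8 of the mature miRNA they overlapped.

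**Figure D2:**
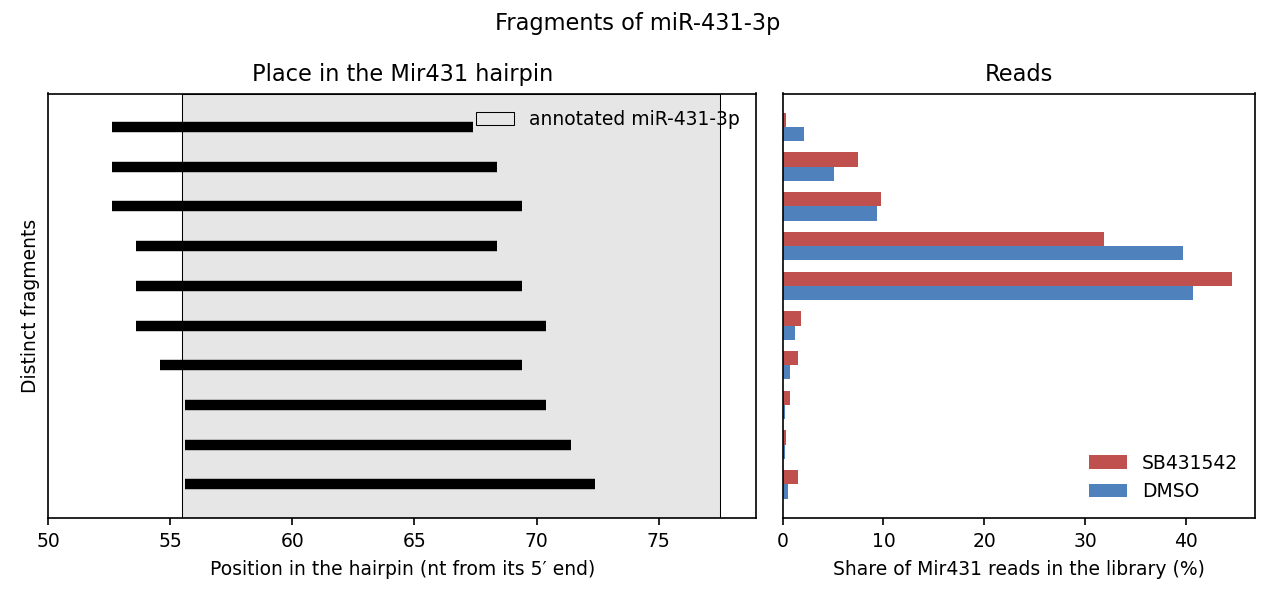
Left, the 10 distinct fragments of miR-431-3p drawn to scale along the hairpin, with the annotated mature miRNA shaded (positions 56 to 77); right, the share of Mir431 reads that each fragment holds with SB431542 (red, 267 reads) and DMSO (blue, 784 reads). The fragments that begin at position 54 and end at 68 or 69 hold most reads in both libraries.

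Mir433 and Mir434 started mostly at the annotated 5′ end. For miR-433-3p, 17 of 17 reads with SB431542 and 80 of 82 with DMSO began there. For miR-434-5p the numbers were 9 of 11 (81.8%) and 46 of 56 (82.1%), and the rest began 1 base earlier. Mir127 and Mir136 were mixed. With DMSO, 21 of 24 miR-127-5p reads began at the annotated base, whereas with SB431542 none of the 3 did. miR-136-3p began 1 base early in 4 of 4 reads with SB431542 and 11 of 15 with DMSO. Counting both arms, reads at a mature 5′ end were 2 of 7 with SB431542 and 26 of 33 with DMSO for Mir127, and 0 of 4 and 9 of 24 for Mir136. Over these 4 hairpins, most of whose reads came from Mir433 and Mir434, 71.8% of reads with SB431542 (55.1 to 85.0) and 81.9% with DMSO (75.8 to 87.0) began at the mature 5′ end.

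Across the series, 39 of the 48 described arms could be set against a mature miRNA of the RefSeq table. The commonest start fell on the annotated first base in 33 of them, and miR-431-3p was the only arm in which it fell 2 bases before. Of the 7 other arms of the Dlk1-Dio3 region among them, 6 started at the annotated base and miR-411-5p started 1 base early. These are counts over both libraries, with no test.

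**Figure D3:**
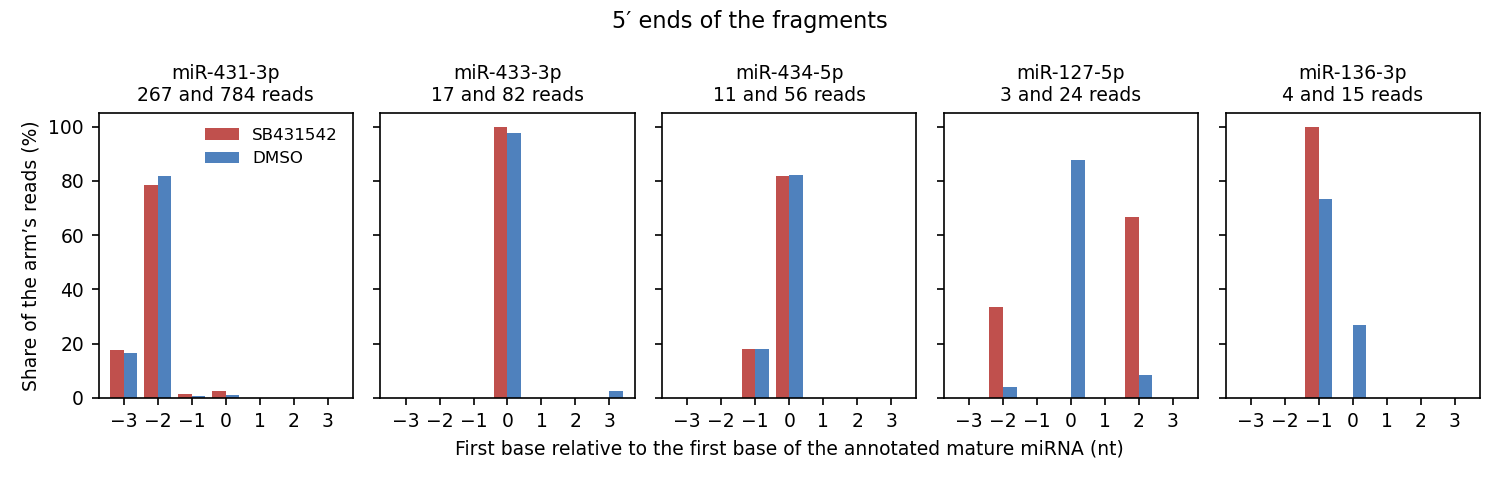
Share of each arm's reads by first base, in nt from the first base of the annotated mature miRNA (0), with SB431542 in red and DMSO in blue; the titles give the reads with SB431542 and then with DMSO. Reads of miR-431-3p peak at -2 in both libraries, while those of miR-433-3p and miR-434-5p peak at 0.

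Mir431 reads were shorter than those of Mir433 in both libraries. For Mir431, reads of 17 nt were 13.1% with SB431542 (9.30 to 17.8) and 11.1% with DMSO (8.98 to 13.5), and reads of 16 nt were 52.4% and 46.0%. For Mir433, 17 nt was the commonest length, with 13 of 17 reads and 63 of 82 reads. Over the 4 hairpins without Mir431, reads of 17 nt made up 48.7% with SB431542 (32.4 to 65.2) and 65.3% with DMSO (58.3 to 71.9). Among all miRNA reads the 17-nt share was 26.7% and 25.7%.

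Mir431 reads became fewer again below 15 nt. At 14 nt there were 40 reads with SB431542 and 128 with DMSO, at 13 nt 5 and 18, and at 12 nt 1 and 1. Within 12 to 17 nt the number of Mir431 reads thus peaked at 16 nt in both libraries. Those from position 53 still rose to 17 nt, from 20 reads at 16 nt to 26 with SB431542 and from 40 to 73 with DMSO. For Mir433 the number was highest at the upper limit of 17 nt. Whether longer reads were more frequent is not analysed here for either hairpin. Reads under 15 nt were not matched to other transcripts.

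**Figure D4:**
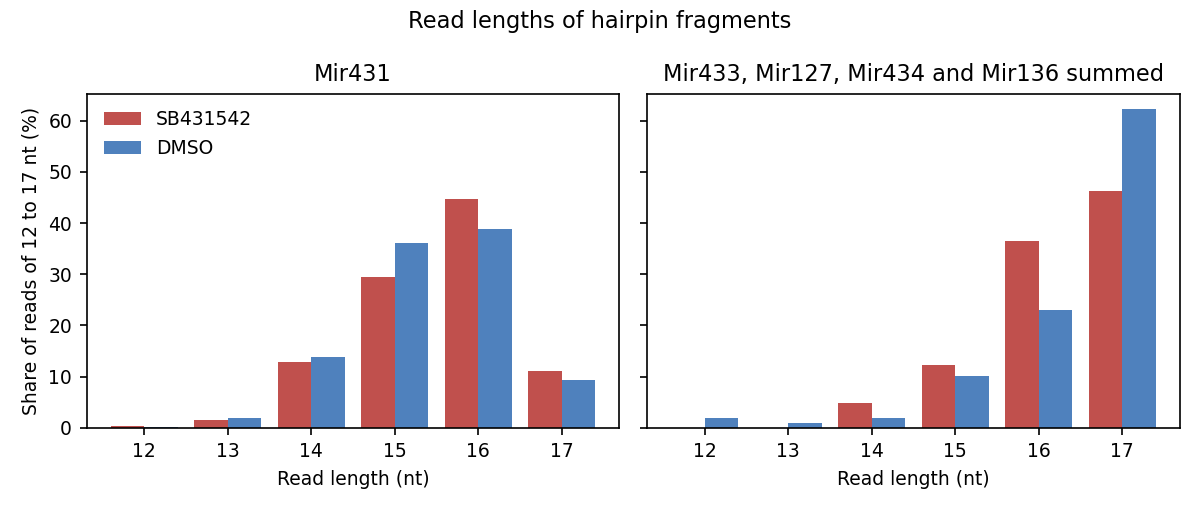
Share of hairpin reads at each length from 12 to 17 nt for Mir431 (left) and for the other 4 hairpins summed (right), with SB431542 in red and DMSO in blue. Mir431 peaks at 16 nt (140 and 361 reads), and the sum of the other 4 hairpins is highest at 17 nt. With SB431542 this does not hold for Mir434 (9 reads at 16 nt, 2 at 17 nt) or Mir127 (3 and 0).

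The comparison of SB431542 with DMSO asked whether the inhibitor changed these fragments. In RPM, miR-431-3p was 1.21-fold higher with SB431542 (log2 ratio 0.27, 0.07 to 0.47, with a pseudocount of 0.5 read). The interval of miR-433-3p (log2 ratio -0.41, -1.29 to 0.32) and that of miR-434-5p (-0.47, -1.60 to 0.43) included 0. These 3 are the described arms of the group. The value of miR-434-5p moved when its leading 16-nt fragment was not counted. It was -1.84 without the most abundant sequence of every miRNA arm and -1.89 for reads of 17 nt alone. For the Mir434 hairpin these values were -1.92 and -1.98. In both settings the miRNA total was taken over the remaining reads. None of the 3 was 2-fold apart, against 5 of 48 over all miRNA arms (10.4%). The interval lay above 0 for 1 of the 3, against 29.2% of all arms, and below 0 for none, against 20.8%. Their median log2 ratio was -0.41, and that of all 48 arms was 0.14.

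The sign for miR-431-3p depended on the scale. Per 1000000 reads of 15 to 17 nt it had 516 with SB431542 and 792 with DMSO (log2 ratio -0.62, -0.82 to -0.42), and with edgeR TMM factors the ratio was -0.0016. On the per-read scale miR-433-3p stood at -1.30 (-2.18 to -0.57) and miR-434-5p at -1.36 (-2.49 to -0.46). All 3 intervals then lay below 0, as did those of 77.1% of all described arms, whose median on that scale was -0.75.

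By hairpin, the log2 ratio in RPM was -0.33 for Mir127 (-1.83 to 0.79), -0.57 for Mir434 (-1.70 to 0.32) and -0.62 for Mir136 (-2.75 to 0.78), each with an interval that included 0. At 17 nt alone Mir127 had 0 reads with SB431542 and 16 with DMSO. Arms of few reads gave no direction at this depth. Examples are miR-127-5p (-0.98, -3.55 to 0.55), miR-127-3p (0.75, -1.50 to 2.50) and miR-136-3p (0.04, -2.13 to 1.57). For miR-136-5p and miR-434-3p no fold is given, since 0 reads with SB431542 allow up to 135 RPM, more than their levels with DMSO (115 and 50.9 RPM).

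The 5 hairpins summed to 13820 RPM with SB431542 and 12520 RPM with DMSO (log2 ratio 0.14, -0.05 to 0.33). Without Mir431 the sum was 1761 RPM and 2535 RPM, with the opposite sign (-0.51, -1.06 to -0.02). A comparison within each library does not depend on the scale. Mir431 gave 6.85 reads for each read of the other 4 hairpins with SB431542 and 3.94 with DMSO, a log2 ratio of 0.80 (exact conditional interval 0.25 to 1.37). The 4 were grouped after their values were known. Against each of them alone the value was 0.72 for Mir433 (-0.08 to 1.59), 0.68 for Mir127 (-0.54 to 2.12), 0.89 for Mir434 (-0.08 to 1.99) and 1.03 for Mir136 (-0.53 to 3.03), and each interval included 0.

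**Figure D5:**
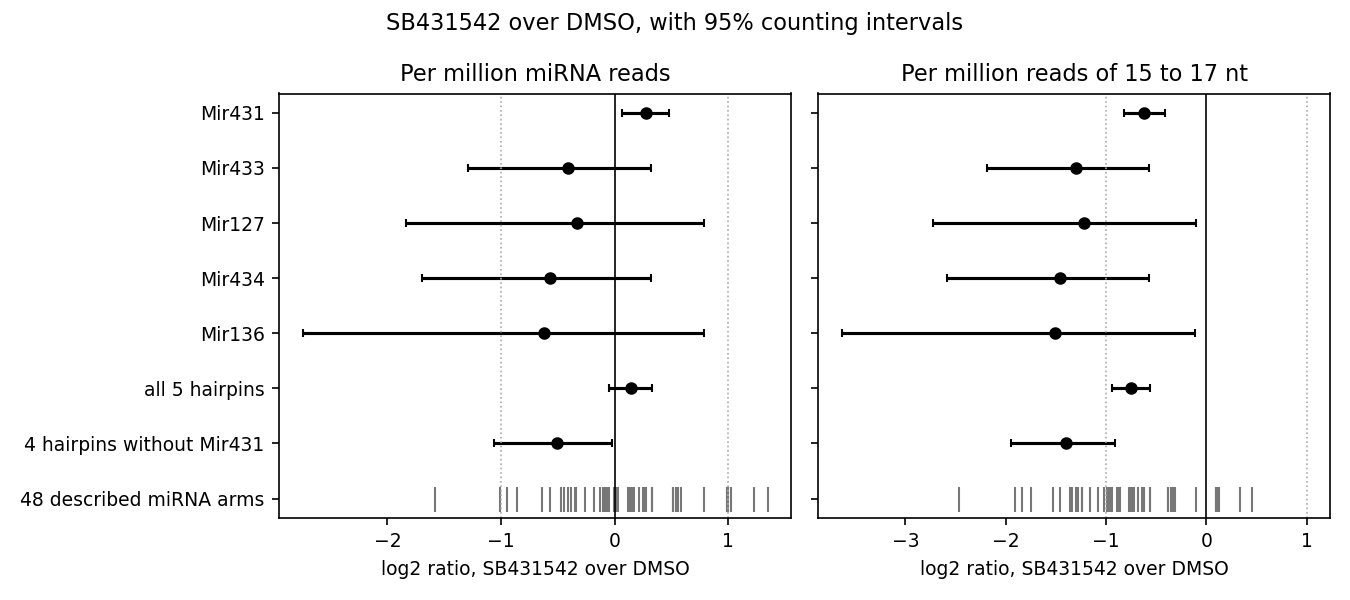
Log2 ratio of SB431542 to DMSO for each hairpin and their sums per 1000000 miRNA reads (left) and per 1000000 reads of 15 to 17 nt (right); points are single ratios, bars are exact 95% counting intervals, dotted lines mark 2-fold, and ticks in the lowest row are the 48 described miRNA arms. Mir431 lies to the right of the other 4 hairpins on both scales, at 0.27 and -0.62.

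The other miRNAs of the Dlk1-Dio3 region gave the setting. Of 54 listed besides these 5 hairpins, 52 were in the annotation and 39 had a read, and together they had 5246 reads with SB431542 and 18242 with DMSO (log2 ratio in RPM 0.03, -0.02 to 0.07). Most of these reads came from miR-382-5p (2667 with SB431542 and 8538 with DMSO) and miR-409-3p (1978 and 7531). The 7 described arms of these other miRNAs ranged from -1.01 to 0.58 with a median of 0.17. Of their intervals, 2 lay above 0, 2 below and 3 included 0. Relative to the reads of these neighbours, Mir431 stood at 0.24 (0.03 to 0.45) and the other 4 hairpins together at -0.55 (-1.09 to -0.05). The arms outside the group whose log2 ratio over the 2 libraries was nearest to its sum were miR-382-5p (difference 0.0035), miR-290a-5p (0.011) and miR-182-5p (0.013). With 2 libraries such likeness is a single ratio.

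The GC content of the hairpin reads was 56.7% with SB431542 and 56.2% with DMSO. All reads of that length averaged 64.2% and 60.7%. When each sequence was corrected for its GC content, the log2 ratio of the summed 5 hairpins in RPM was 0.03. With the same correction miR-431-3p stood at 0.15, miR-433-3p at -0.47 and miR-434-5p at -0.49, and Mir431 against the other 4 hairpins at 0.71.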

How the data were processed

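The deposited values are raw counts of reads per distinct sequence, with each sequence and its length and no normalization, 1 table per library, as read from the files. Per the labels' protocols, TRIzol RNA went into an Illumina TruSeq RNA kit. For size selection, trimming and filters the sources used here give nothing, and fragments under 18 nt may depend on them. The submitters' processing notes name the build mm9, and no mm9 coordinate was used. Per the deposited tables the other column holds the length in nt.

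Sequences of 15 to 17 nt were matched exactly to GENCODE M21 transcripts (GRCm38). Sequences found in other kinds of small RNA, or in over 5 further genes, were left out, and those shared by several miRNAs were divided equally. None of the 36 hairpin sequences was affected. Arms were assigned by the side of the hairpin's middle on which a fragment's midpoint lay. Hairpins and mature miRNAs came from RefSeq (GRCm38.p6), and all 5 genes matched at the same positions.

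With 1 library a group no test was made. Ratios have exact conditional binomial intervals, shares have Clopper-Pearson intervals and levels have exact Poisson intervals. The ratio code was tested on simulated data. Reads are given for all 10 arms, ratios are called only for arms with 50 or more reads, and sequences are printed for those with at least 10 reads. Outside the group, the 3 arms nearest in ratio are named. Members and lists were chosen with earlier results of these data known. Python 3.11.15, numpy 2.4.6, scipy 1.17.1, pandas 2.3.3, matplotlib 3.10.9, R 4.3.3, edgeR 4.0.16 and DESeq2 1.42.0 were used, the last 2 for scaling factors only.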

Additional observations from a re-analysis of the deposited data

How the results depend on the processing

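Few reads limit every value except those of Mir431, and 1 library a group limits all comparisons. No paired analysis was possible because each group has 1 library, and none can be left out. The direction of the summed ratio (0.14) was not stable: it was -0.13 with edgeR TMM factors, -0.10 with DESeq2 size factors, -0.75 per all reads of 15 to 17 nt, -0.071 with the top 5 arms left out of the miRNA total, -0.23 for reads of 17 nt only, -0.022 with every match counted whole and -0.51 without Mir431, the last chosen after seeing the data. The first 4 scales shift the median of all described arms by -0.28, -0.25, -0.89 and -0.22. miR-431-3p, and with it Mir431, reversed to -0.0016 with TMM and -0.62 per all reads of 15 to 17 nt. The excess of Mir431 over the other 4 hairpins kept its sign in all 7 alternatives, between 0.68 and 1.44, the highest at 17 nt. Among these, counting every match whole leaves the hairpin reads as they are and could not change it. The sum of the 4, -0.51 in the main setting, was below 0 in all 12 alternatives, between -1.40 and -0.39. The alternative scales, and counting every match whole, lower every ratio of these hairpins. Those settings could not have turned its sign. Arms past 2-fold over all miRNAs were 15 of 48 per all reads of 15 to 17 nt (31.2%), 41 of 97 with every match counted whole, 3 of 50 with a GC correction, 157 of 409 with no read minimum (38.4%) and 3 of 26 with at least 200 reads. The arms of the 5 hairpins among them were 2 of 3 per all reads of 15 to 17 nt and 2 of 8 with no read minimum. These last are miR-136-5p and miR-434-3p, which have 0 reads with SB431542 and no usable fold. Counting distinct sequences once, miR-431-3p held 50.0% with SB431542 and 29.4% with DMSO, its commonest start 30.0% in each, 16 nt 35.0% and 32.4%, 17 nt 30.0% and 38.2%, and 15 nt 29.4% with DMSO. Among reads of 17 nt the commonest start held 14.3% and 11.5%, since reads from it end at 68 or 69. In 1 random draw of 306 of the DMSO reads, 33.0% were 15 nt and 25.8% were 17 nt. The causes of the other shifts were not tested.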

Other observations

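Within miR-431-3p the shortest fragment from position 53, of 15 nt, had 1 read with SB431542 and 17 with DMSO, while the 17-nt fragment from the same start had 26 and 73. Reads of 15 nt were 34.5% of Mir431 reads with SB431542 (28.8 to 40.5) and 42.9% with DMSO (39.4 to 46.4). From the annotated start of miR-434-5p, the 17-nt fragment had 0 of 9 reads with SB431542, which allows up to 33.3%, and 21 of 46 with DMSO (45.7%, 30.9 to 61.0). In the same arm the 16-nt fragment had 9 and 24 reads. These sequences were picked after their values were seen.

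A few reads ended at the annotated 3′ end and began inside the mature sequence. They were 2 reads with SB431542 and 5 with DMSO over the 5 hairpins, from miR-127-3p (2 and 4) and miR-136-5p (0 and 1). In miR-127-3p such reads were as frequent as those from the 5′ end, which had 2 and 5.

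The number of distinct hairpin sequences was 20 with SB431542 and 34 with DMSO. At the read number of the SB431542 library the DMSO library is expected to hold 25.2. Of the 36 sequences, 18 were in both libraries. The 16 found with DMSO alone had 65 reads in all, and the 2 found with SB431542 alone had 3. Over all sequences of 15 to 17 nt, 42410 were found with SB431542, 71589 with DMSO and 96471 in either library. More distinct sequences with DMSO, the library with more reads, are thus not particular to these hairpins.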
